A study of Homo sapiens with 6 samples.

Results

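The hypoxia-inducible factor (HIF) pathway was examined in the human colorectal cancer cell line HCT116, with and without silencing of CAPG, an actin filament capping protein. The 36 genes described here were picked by name, as the HIF subunits, the oxygen-sensing enzymes that control them, and known hypoxia targets outside glycolysis. All 36 symbols were found, each once, among the 60643 genes of the deposited expression table. All 6 RNA sequencing libraries came from cells carrying a short hairpin RNA against CAPG (shCAPG) that doxycycline switches on. The 3 untreated libraries, for which the labels give the genotype WT, are called -Dox. The other 3, labelled CAPG Knockdown and called +Dox, were induced for 3 days with doxycycline, for which the labels state 100 ng/µl. The labels name the tissue as rectum and the cells as human colon cancer cells, and do not say whether the shCAPG cells were a pool or a single clone. Doxycycline without this hairpin was not analysed here, so the drug and the hairpin cannot be told apart. The deposited columns of all 6 libraries name the same hairpin. The loss of CAPG and any other effect of this hairpin therefore cannot be told apart either. No label mentions a change of oxygen supply: the cells were grown in serum-supplemented DMEM in a humidified incubator.

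HIF is a dimer of an oxygen-labile alpha subunit (HIF1A or EPAS1) and the stable partner ARNT. When oxygen is present, prolyl hydroxylases of the EGLN family mark the alpha subunit, VHL binds the marked protein as part of a ubiquitin ligase, and the proteasome degrades it. When oxygen falls the dimer accumulates and activates genes for pH control, blood vessel growth, collagen processing, mitophagy and glycolysis. This control acts mainly on the protein, so the RNA levels below describe the transcripts of the pathway and not HIF protein or oxygen.

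CAPG stood at 61.1, 56.9 and 53.7 FPKM (fragment counts scaled to transcript length and library size) in -Dox replicates 1, 2 and 3, and at 8.18, 8.03 and 9.97 FPKM in +Dox replicates 1, 2 and 3. The groups did not overlap, 15.3% of the untreated mean was left, and a two-sided exact permutation test gave p = 0.1, the lowest value possible with 3 libraries against 3. Estimated depth was 14200000 to 18300000 fragments per library, so that 3 fragments in a 1 kb transcript equal 0.164 to 0.211 FPKM, counting error only. FPKM summed to 521832 to 536037 in 5 libraries and to 586911 in +Dox replicate 3, which stands apart in this respect. Of 7 markers of a colorectal epithelial line 6 were above 1 FPKM in every library, among them EPCAM and KRT8, and CDH17 was below 1 FPKM in all. Their summed level was 1720 to 1937 FPKM in -Dox and 1927 to 2274 FPKM in +Dox. Markers of leukocytes summed to at most 1.48 FPKM and markers of endothelium to at most 0.547 FPKM in any library. Of 6 fibroblast markers 5 were under 1 FPKM in every library and COL1A1 made up nearly all of their sum (7.97 to 11.3 FPKM in -Dox, 7.58 to 9.80 FPKM in +Dox). COL1A2, DCN and CD3E were listed at 0 in every library. EPCAM was called higher in +Dox, at 181 to 197 FPKM against 224 to 263 FPKM, and the part of such a shift in the results below was not tested. No label states that replicates were grown separately, so every p-value here reflects library-to-library spread that could be technical.

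A part of the hypoxia targets was lower in +Dox cells, and of the HIF subunits and oxygen sensors HIF1A alone was called, as higher. Of the 36 genes, 12 were called lower and 2 higher by limma on log2(FPKM + 1), at an adjusted p under 0.05. Among all 14475 tested genes 4.77% were called lower and 3.69% higher. The 12 lower genes were ANKRD37, CA9, ADM, CA12, NDRG1, PLOD2, HILPDA, ANGPTL4, KDM3A, BHLHE40, BNIP3 and BNIP3L, and the 2 higher ones were HIF1A and EFNA1. All 12 belong to the 28 targets. Of the 8 subunits and sensors 0 was called lower, which among 8 genes is near the 4.77% of all tested genes. The 2 higher genes are 5.56% of the 36, a share near the 3.69% of all tested genes. CA12 entered the test only through the -Dox libraries, and without it the count was 11 of 35. In bulk RNA, fewer cells expressing a gene and less of its RNA per cell cannot be told apart.

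The log2 change was negative in 24 of 28 targets (23 of 27 without CA12) and 3 of 8 subunits and sensors, against 50.4% of all tested genes. Its median was -0.34 over the targets (-0.33 without CA12), 0.03 over the subunits and sensors, and -0.003 over all tested genes. In 20 of the 36 genes (19 of 35 without CA12) every +Dox library lay below every -Dox library, against 17.5% of all tested genes. In 3 (HIF1A, EGLN2 and EFNA1) every +Dox library lay above, against 17.0%. The genes are not independent replicates, and several were known from earlier results of these data to be lower. The sum of all genes of the set other than MIF was 1248, 1265 and 1207 FPKM in -Dox and 978.3, 1001 and 1001 FPKM in +Dox replicates 1, 2 and 3. With MIF, whose FPKM exceeded that of any other member, the sums were 1863, 1826 and 1668 FPKM in -Dox and 1495, 1550 and 1659 FPKM in +Dox, where -Dox replicate 3 and +Dox replicate 3 nearly meet. The sum without MIF was chosen after the values were seen.

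**Figure D1:**
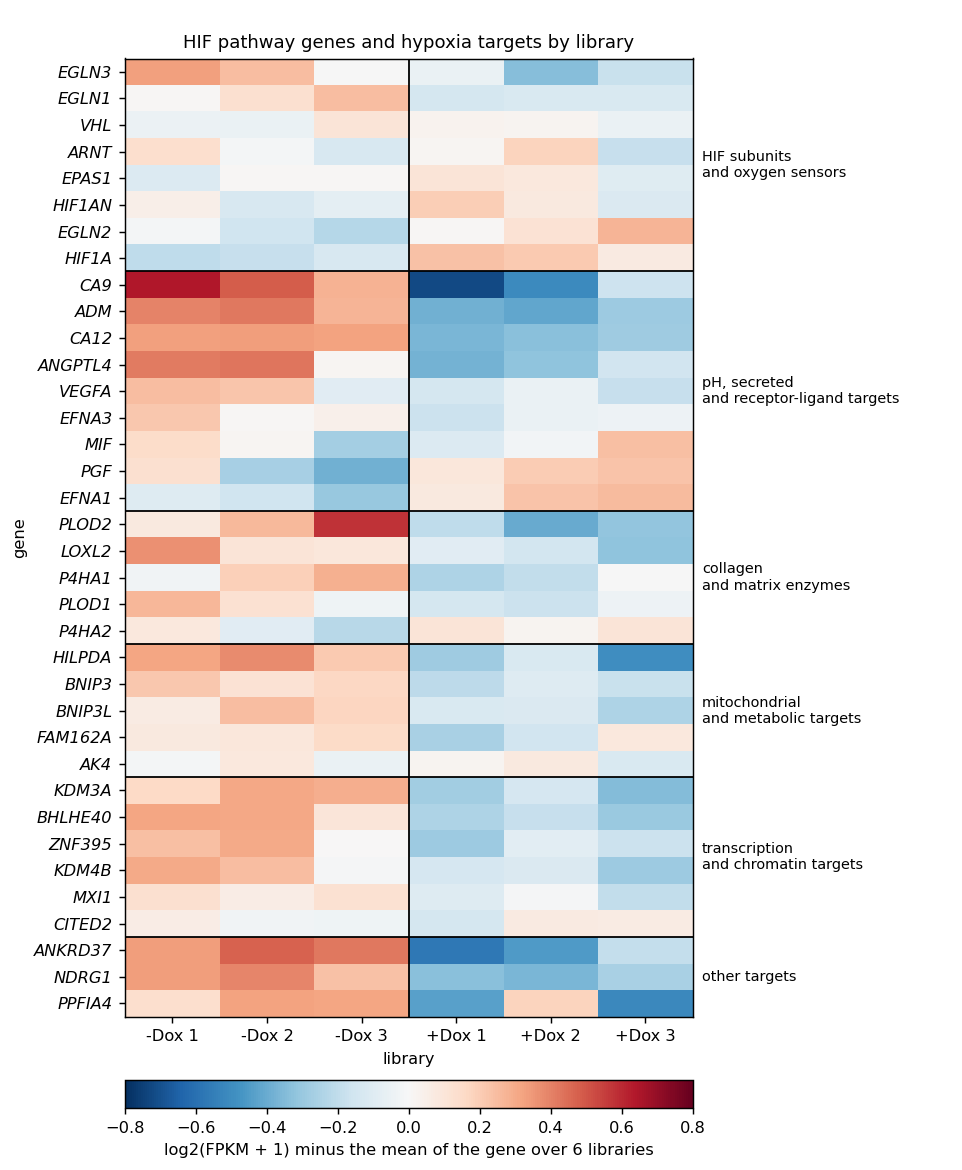
Deviation of each gene from its own mean over the 6 libraries, as log2(FPKM + 1), with libraries in columns, genes in rows ordered by role, red above and blue below the mean. Among the 28 targets most rows turn from red in the -Dox columns to blue in the +Dox columns, while the top block of 8 subunits and sensors shows both orders.

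The promoters of the lower genes are shown because HIF binds DNA through the letters ACGTG or GCGTG. Of the 36 genes, 29 were matched by symbol to RefSeq promoter windows (GRCh38.p14, 250 bases before to 50 after the gene start), and both strands were searched. ACGTG was present in 15 of these 29 windows (51.7%), in 27.1% of 9947 windows of tested genes and in 21.6% of all 27305 windows. GCGTG was present in 15 of 29 (51.7%), in 51.8% of tested genes and in 36.3% of all. ACGTG also lies inside CACGTG, the E-box letters that BHLHE40 and MXI1 proteins recognise, and CACGTG itself was found in 8 of the 29 windows (27.6%) against 10.3% of tested genes. The median GC content of the windows was 69.3% for the 29 genes, 65.7% for tested genes and 58.3% for all, and its part in these shares was not tested. Among the 9 lower genes with a window, 6 held ACGTG, and ADM, CA12 and KDM3A held GCGTG only. Among the 20 other genes 9 held ACGTG (45%). These 20 mix targets with subunits and sensors, so their share is not one of targets alone. Of the subunits and sensors with a window, EGLN1 and EGLN2 held ACGTG, and HIF1A, EPAS1, ARNT, EGLN3 and HIF1AN did not. Over all tested genes called lower, ACGTG was in 144 of 508 windows (28.3%). A match is a description of letters and does not show that HIF binds there.

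Around the ACGTG match nearest to the start, the 6 windows read as follows, 5′ to 3′ on the strand of the gene, with the match in capitals (CACGT where it lies on the other strand).
ANKRD37 (chr4:185396678-185396722, plus strand): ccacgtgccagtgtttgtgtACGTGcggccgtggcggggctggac
CA9 (chr9:35673890-35673934, plus strand): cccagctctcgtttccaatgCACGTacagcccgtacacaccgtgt
BHLHE40 (chr3:4979268-4979312, plus strand): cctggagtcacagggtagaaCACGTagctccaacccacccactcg
PLOD2 (chr3:146161306-146161350, minus strand): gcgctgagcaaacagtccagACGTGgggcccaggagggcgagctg
ANGPTL4 (chr19:8363905-8363945, plus strand): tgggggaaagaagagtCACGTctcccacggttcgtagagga
BNIP3 (chr10:131982032-131982076, minus strand): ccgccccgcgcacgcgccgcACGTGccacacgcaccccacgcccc
The CA9 match lies closest to its gene start, beginning 18 bases before it. The other 5 matches begin 133 to 234 bases before the start. Starts here are those of RefSeq, and for ANKRD37, PLOD2 and ANGPTL4 the locus in the deposited table begins farther upstream, so that their windows lie inside it. BHLHE40 holds 4 ACGTG matches in its window, ANKRD37 holds 3, PLOD2 and BNIP3 hold 2 each, and CA9 and ANGPTL4 hold 1 each. Both strands count here, and a CACGTG therefore counts as a pair. The marked BNIP3 match follows a c and so lies in a CACGTG, the E-box letters, which makes up both BNIP3 matches.

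HIF1A (ENSG00000100644, chromosome 14, 61695513 to 61748259, GRCh38 as all positions here), which encodes the oxygen-labile subunit found in most cell types, was higher with doxycycline. Its level was 45.2, 45.7 and 47.5 FPKM in -Dox and 61.4, 60.3 and 54.6 FPKM in +Dox replicates 1, 2 and 3. The groups did not overlap (log2 change 0.34, SE 0.08, limma adjusted p = 0.031). The call rested on small margins: it was lost in 5 of 6 leave-one-out fits, each dropping a single library (adjusted p up to 0.129, and 0.0182 without +Dox replicate 3) and also with libraries scaled to equal totals (0.0821), after quantile normalization (0.0685), with ordinary empirical Bayes (0.0549) and without a filter on low values (0.0928). EPAS1, the second alpha subunit, was at 17.6 ± 0.845 FPKM in -Dox and 18.4 ± 1.44 FPKM in +Dox (SD, n = 3 each, adjusted p = 0.712). ARNT, the shared partner, was at 15.3 ± 1.5 and 15.4 ± 2.05 FPKM (0.975). Both of these overlapped between groups, and HIF1A was the most abundant of the 3 subunit transcripts per length in every library.

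The 3 prolyl hydroxylase genes did not move together. EGLN1, the main HIF hydroxylase in most cells, was at 38.6, 41.9 and 45.6 FPKM in -Dox and 34.6, 35.0 and 35.1 FPKM in +Dox. EGLN3, itself a strongly hypoxia-induced gene, was at 8.70, 8.16 and 6.72 FPKM in -Dox and 6.45, 5.09 and 5.84 FPKM in +Dox. EGLN2, which is not known as a hypoxia target, was at 21.5, 19.3 and 18.4 FPKM in -Dox and 21.9, 23.6 and 26.4 FPKM in +Dox. All 3 had groups that did not overlap, EGLN1 and EGLN3 with lower and EGLN2 with higher values in +Dox, and 0 of the 3 passed the test (limma adjusted p = 0.0855, 0.0817 and 0.115). Such separation was seen in 17.5% of all tested genes for lower and in 17.0% for higher values. After correction for length and GC content EGLN3 (0.0449) and EGLN2 (0.0254) passed. EGLN2 shares 2012 exon bases with the readthrough gene RAB4B-EGLN2 on the same strand, which averaged 1.27 FPKM, so reads may be split between them. VHL was at 32.1 ± 2.02 and 32.0 ± 0.981 FPKM (adjusted p = 0.988). HIF1AN, the asparaginyl hydroxylase that blocks the HIF activation domain, was at 24.6 ± 1.61 and 26.6 ± 2.96 FPKM (0.523). It overlaps exons of the mitochondrial complex gene NDUFB8 on the other strand, at 164 to 232 FPKM, and the sources used here do not say whether counting used strand.

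The carbonic anhydrases CA9 and CA12 sit in the plasma membrane and hydrate CO2 outside the cell, which helps acid-producing cells keep their inner pH. CA9 (ENSG00000107159, chromosome 9, 35673918 to 35681159) was at 6.21, 5.46 and 4.61 FPKM in -Dox and 1.80, 2.24 and 3.12 FPKM in +Dox. CA12 (ENSG00000074410, chromosome 15, 63321378 to 63381846) was at 1.76, 1.77 and 1.75 FPKM in -Dox and 0.707, 0.743 and 0.802 FPKM in +Dox. The highest +Dox library lay below the lowest -Dox library for both genes, and 44.0% and 42.7% of the -Dox means were left, the smallest shares of the 36 genes. The log2 change of CA9 was -0.93 (SE 0.16, limma adjusted p = 0.0124). CA9 passed in all 6 leave-one-out fits, up to an adjusted p of 0.0465, and was not called without a filter on low values (0.0783). The log2 change of CA12 was -0.66, which the added 1 in the log shrinks in particular. CA12 passed the filter only because its -Dox libraries exceed 1 FPKM, so its call is a description and supports nothing further. CA9 shares 643 exon bases with ARHGEF39 on the other strand. ARHGEF39 was at 9.47, 8.65 and 8.87 FPKM in -Dox and 6.02, 6.14 and 7.82 FPKM in +Dox (adjusted p = 0.0618), and how far reads were shared was not tested.

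Among secreted factors, ADM and ANGPTL4 fell. ADM (ENSG00000148926, chromosome 11, 10305073 to 10307397) encodes adrenomedullin, a vessel-relaxing and vessel-forming peptide, and had the smallest adjusted p of the set. It was at 57.9, 58.9 and 53.1 FPKM in -Dox and 33.4, 32.6 and 35.6 FPKM in +Dox, with a gap between the groups far wider than the range within either. The log2 change was -0.72 (SE 0.08, limma adjusted p = 0.00228), and 59.8% was left. ANGPTL4, an inhibitor of lipoprotein lipase, was at 26.1, 26.4 and 19.6 FPKM in -Dox and 14.7, 15.3 and 17.3 FPKM in +Dox (log2 -0.57, SE 0.12, adjusted p = 0.0265). The groups came within a few FPKM of each other in -Dox replicate 3 and +Dox replicate 3, and the ANGPTL4 call was lost in 4 of 6 leave-one-out fits (up to 0.102).

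The growth factor genes of vessels did not pass the test. VEGFA, the main vessel growth factor induced by hypoxia, was at 38.0, 37.4 and 29.9 FPKM in -Dox and 28.8, 30.8 and 27.96 FPKM in +Dox. Only +Dox replicate 2 lay above a -Dox library, replicate 3 (log2 -0.25, SE 0.10, adjusted p = 0.154). PGF, placental growth factor of the same family, was at 5.79, 4.16 and 3.75 FPKM in -Dox and 5.5995, 6.13 and 6.27 FPKM in +Dox (log2 0.35, adjusted p = 0.143). For MIF, a secreted inflammatory factor, the values were 615, 561 and 460 FPKM in -Dox and 516, 549 and 658 FPKM in +Dox, with the groups overlapping (0.734). EFNA1, an ephrin-A ligand, was at 8.26, 7.94 and 7.08 FPKM in -Dox and 9.53, 10.7 and 10.9 FPKM in +Dox, with no overlap (log2 0.38, SE 0.10, adjusted p = 0.048), but its call was lost in all 6 leave-one-out fits (0.0695 to 0.138). EFNA3, a second such ligand, was at 14.5 ± 1.2 and 12.7 ± 0.694 FPKM (0.252).

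**Figure D2:**
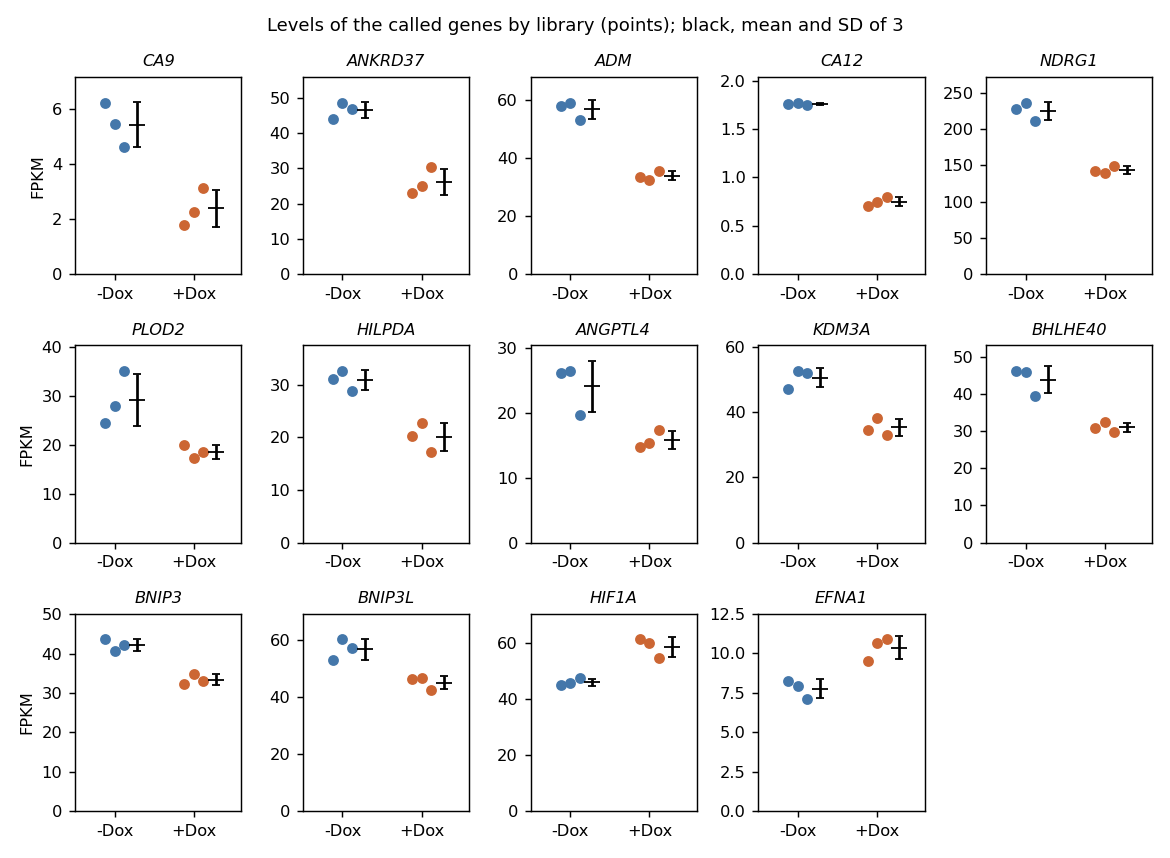
FPKM of the 14 called genes in each library (points, in replicate order), with the mean and SD of the 3 libraries of each group in black, each axis starting at 0. The +Dox points lie below the -Dox points in 12 panels, from CA9 to BNIP3L, and above them for HIF1A and EFNA1.

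Collagen prolyl and lysyl hydroxylases need oxygen themselves and prepare collagen for folding and cross-linking. PLOD2, the lysyl hydroxylase of collagen telopeptides, was at 24.5, 27.95 and 35.1 FPKM in -Dox and 20.02, 17.3 and 18.4 FPKM in +Dox. The -Dox libraries were spread widely but all lay above the +Dox libraries (log2 -0.61, SE 0.13, limma adjusted p = 0.0234). The PLOD2 call was lost without -Dox replicate 2 (0.0731), +Dox replicate 2 (0.0639) and +Dox replicate 3 (0.0542). PLOD1 was at 71.8 ± 7.54 and 60.7 ± 3.03 FPKM (adjusted p = 0.137), without overlap. The prolyl hydroxylase subunit gene P4HA1 was at 58.7 ± 6.44 and 47.4 ± 4.37 FPKM (0.0983), and P4HA2 at 24.3 ± 2.71 and 27.0 ± 0.946 FPKM (0.327), both with overlap. P4HA1 passed with libraries scaled to equal totals (0.048) and after the length and GC correction (0.0255). LOXL2, a lysyl oxidase that cross-links collagen, was at 15.2, 12.5 and 12.4 FPKM in -Dox and 10.8, 10.4 and 9.08 FPKM in +Dox. Its groups did not overlap (log2 -0.37, adjusted p = 0.0674).

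BNIP3 and BNIP3L are outer mitochondrial membrane receptors for mitophagy, and both fell by a similar share. BNIP3 was at 43.6, 40.6 and 42.2 FPKM in -Dox and 32.3, 34.9 and 33.0 FPKM in +Dox. BNIP3L was at 52.9, 60.1 and 57.0 FPKM in -Dox and 46.3, 46.4 and 42.3 FPKM in +Dox. The groups did not overlap for either, 79.2% and 79.4% were left, and the log2 change was -0.33 for each (SE 0.08, limma adjusted p = 0.0328 and 0.043). These were the smallest changes among the 12 lower genes: the BNIP3 call was kept in 1 of 6 leave-one-out fits (up to 0.108), and the BNIP3L call in 0 of 6 (up to 0.184). The BNIP3 pseudogene BNIP3P1 was at 7.47, 7.88 and 7.94 FPKM in -Dox and 6.20, 6.95 and 7.21 FPKM in +Dox, and reads may be exchanged between such copies.

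HILPDA, a lipid droplet protein that inhibits triglyceride breakdown, was at 31.1, 32.6 and 28.8 FPKM in -Dox and 20.2, 22.7 and 17.3 FPKM in +Dox. Its lowest -Dox library was above its highest +Dox library (log2 -0.60, SE 0.11, limma adjusted p = 0.0148), and the call was lost only without -Dox replicate 2 among the leave-one-out fits (0.0664). FAM162A, a mitochondrial protein linked to hypoxic cell death, was at 75.6, 76.3 and 79.5 FPKM in -Dox and 59.5, 64.2 and 75.9 FPKM in +Dox. +Dox replicate 3 reached the -Dox range, and FAM162A passed when that library was left out (0.0349, against 0.177 with all 6). AK4, a mitochondrial adenylate kinase, was at 28.9 ± 1.44 and 28.7 ± 2.06 FPKM (adjusted p = 0.946). AK4 is uncertain, since its processed pseudogene AK4P1 was listed at 20.2 to 27.0 FPKM.

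Of the regulators of transcription and chromatin, KDM3A and BHLHE40 fell. KDM3A removes methyl groups from histone H3 lysine 9, and was at 47.1, 52.5 and 51.8 FPKM in -Dox and 34.6, 38.3 and 33.0 FPKM in +Dox. BHLHE40, an E-box-binding repressor also called DEC1, was at 46.1, 45.8 and 39.6 FPKM in -Dox and 30.9, 32.4 and 29.9 FPKM in +Dox. For each gene the groups were separated by more than the range within the +Dox group (log2 -0.51 and -0.48, SE 0.09 each, limma adjusted p = 0.013 and 0.0156). Both calls were lost without -Dox replicate 2 (0.0681 and 0.0812), and that of BHLHE40 also without -Dox replicate 1 (0.0502).

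A further 3 genes of this kind were lower in every +Dox library without passing the test. Of all tested genes 17.5% had such an order of libraries, called or not. The histone demethylase gene KDM4B was at 15.8, 15.1 and 12.5 FPKM in -Dox and 11.3, 11.5 and 10.1 FPKM in +Dox (log2 -0.36, adjusted p = 0.0697). ZNF395, a zinc finger factor, was at 15.9, 16.7 and 13.4 FPKM in -Dox and 10.7, 12.5 and 11.7 FPKM in +Dox (log2 -0.36, 0.0648). Both passed without -Dox replicate 3 (0.0443 and 0.0454), the -Dox library with their lowest values. ZNF395 shares 2032 exon bases with FBXO16 on the same strand, and FBXO16 averaged 6.78 FPKM. MXI1, an antagonist of MYC, was at 38.1 ± 1.01 and 32.9 ± 2.20 FPKM (0.133). CITED2, which competes with HIF for the coactivators CBP and p300, was at 14.6 ± 0.561 and 14.6 ± 1.28 FPKM (0.992).

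ANKRD37 and NDRG1 were among the most stable calls. ANKRD37 (ENSG00000186352, chromosome 4, 185396021 to 185400628), a small ankyrin repeat protein, was at 44.1, 48.5 and 46.8 FPKM in -Dox and 23.0, 25.1 and 30.3 FPKM in +Dox. This is 56.2% of the -Dox mean (log2 -0.81, SE 0.11, limma adjusted p = 0.00452), with a wide gap between the groups. It shares 909 exon bases with UFSP2 on the other strand, and UFSP2 was at 8.84 to 11.7 FPKM in -Dox and 9.48 to 12.3 FPKM in +Dox (0.476). NDRG1, a stress-induced protein of differentiation, had the highest FPKM of the lower genes, at 227, 236 and 211 FPKM in -Dox and 142, 139 and 150 FPKM in +Dox. Its +Dox libraries lay close together and far below the -Dox libraries (log2 -0.64, SE 0.08, adjusted p = 0.00304). PPFIA4, a liprin, was at 3.39, 4.01 and 3.98 FPKM in -Dox and 1.96, 3.53 and 1.79 FPKM in +Dox (0.1). +Dox replicate 2 alone reached the -Dox range, and PPFIA4 passed without it (0.0265).

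**Figure D3:**
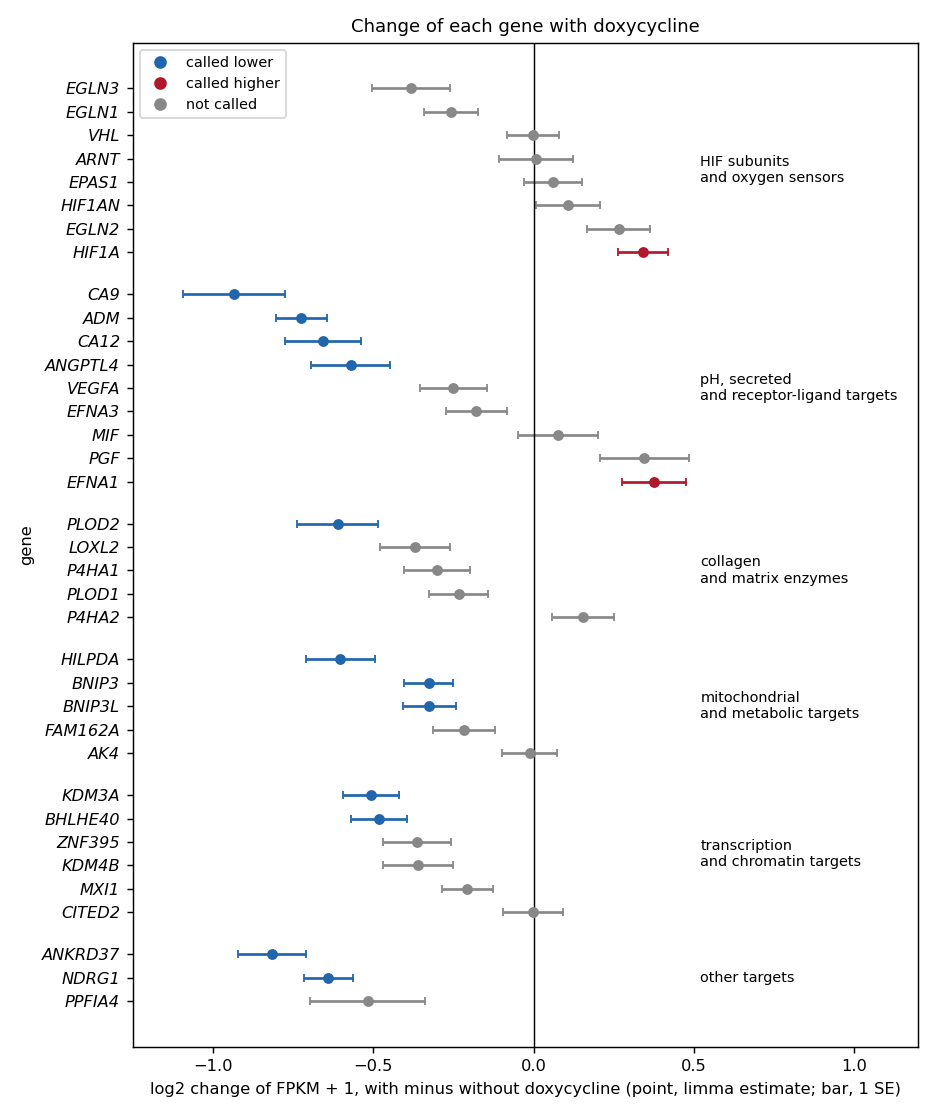
Limma estimate of the log2 change of FPKM + 1, with minus without doxycycline, for each of the 36 genes, with 1 SE, grouped by role and coloured by call. The 12 genes called lower lie between -0.93 (CA9) and -0.33 (BNIP3L), and HIF1A and EFNA1 are the 2 genes called higher.

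The calls differed in how much they rested on single libraries. ADM, NDRG1 and ANKRD37 passed in all 16 alternative fits, and with CA9 they were the 4 genes called lower in every leave-one-out fit (CA12 could be tested in 3 of these). Leaving out -Dox replicate 2 had the largest effect: these 4 were then the only lower genes, where 1.1% of all tested genes were called lower. The members called lower numbered 7 without -Dox replicate 1 (against 1.94% of all tested genes) and 11 without -Dox replicate 3 (against 3.2%). They numbered 9 without +Dox replicate 1 (2.49%), 9 without +Dox replicate 2 (1.8%) and 11 without +Dox replicate 3 (4.18%). Some of these members were not among the 12 lower genes. In the same order, 7, 9, 9, 8 and 10 of the 12 passed. In each of the 16 alternatives the 12 lower genes kept a negative change wherever they could be tested. Without a filter on low values 4 of the 12 passed (CA12, ADM, NDRG1 and ANKRD37), where 0.309% of all tested genes were called lower. The library that stands apart in summed FPKM, +Dox replicate 3, was not needed for 10 of the 12 calls.

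**Figure D4:**
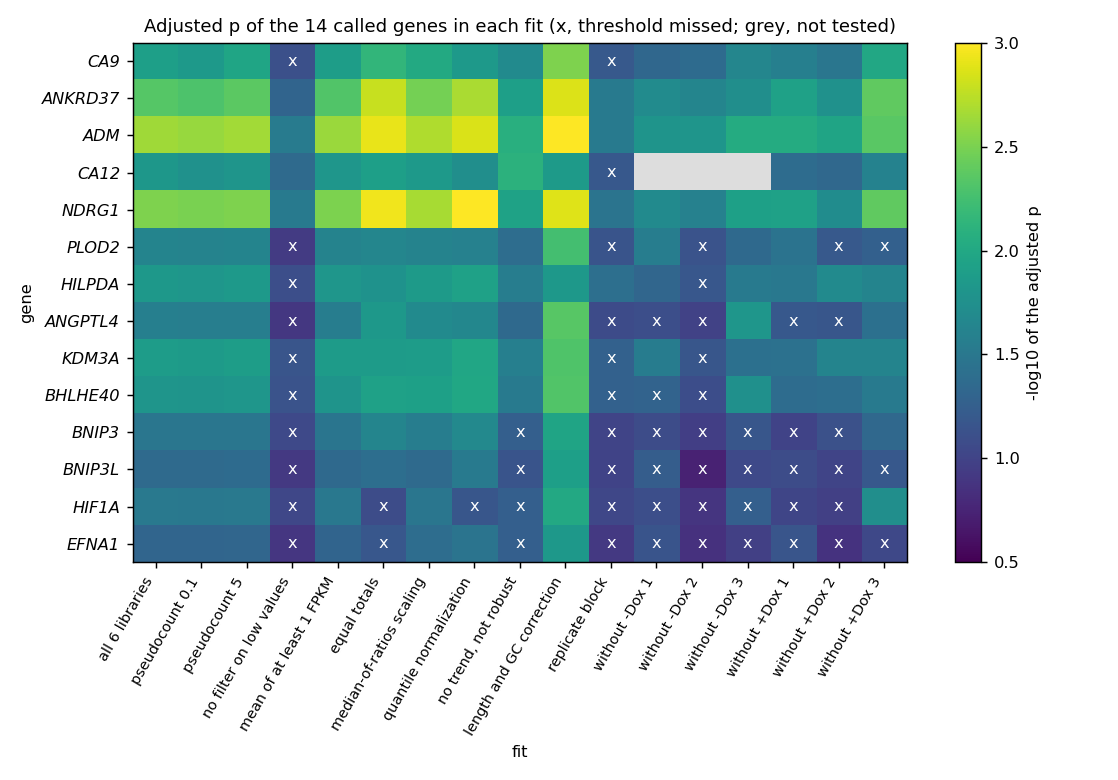
Adjusted p of the 14 called genes (rows) in each fit (columns), as -log10, from dark blue (larger p) to yellow (smaller p), with x where the threshold of 0.05 was missed and grey where the gene was not tested. ADM, NDRG1 and ANKRD37 have no x in any column, and EFNA1 has x in every column that leaves out a library.

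Further genes of the pathway were read from 4 lists, which the set above does not contain. Of 21 glycolytic hypoxia targets, all tested, 6 fell and 0 rose, with a median log2 change of -0.21. The 6 were HK2 (log2 -0.76), PFKFB4 (-0.87), ALDOC (-0.88), ENO2 (-0.59), PDK1 (-0.60) and GPI (-0.40), which encode enzymes of glycolysis or its control (limma adjusted p = 0.00228 to 0.0294). The calls of HK2, PFKFB4 and ALDOC were kept in all 6 leave-one-out fits, that of ENO2 in 5, PDK1 in 4 and GPI in 2. Of 56 tested further targets listed as outside glycolysis 9 fell and 2 rose, with a median of -0.04. That list includes PFKFB3 and SLC16A3, relatives of PFKFB4 and SLC16A1 of the glycolytic list, so the division is not strict. Neither was called (limma adjusted p = 0.0582 for PFKFB3 and 0.984 for SLC16A3). The fall was led by KLHL24 (12.4 ± 0.381 to 7.30 ± 0.515 FPKM, log2 -0.69), the mTORC1 inhibitor gene DDIT4 (155 ± 7.04 to 104 ± 7.86 FPKM, -0.57) and the disulfide-forming oxidase gene ERO1A (55.4 ± 7.04 to 37.3 ± 1.61 FPKM, -0.55), and the transferrin receptor gene TFRC fell too (-0.39). The calls of KLHL24 and DDIT4 were kept in all 6 leave-one-out fits, that of ERO1A in 5 and that of TFRC in 3. The transcription factor gene JUN (log2 0.48) and JMJD6, a dioxygenase (0.42), rose, and each call was kept in 3 of 6 leave-one-out fits. These 2 genes are 3.57% of the 56, a share near the 3.69% of all tested genes called higher. Against the 4.77% of all tested genes, 28.6% of the glycolytic and 16.1% of the further targets were called lower. The share was 42.9% for the 28 targets described above (40.7% of 27 without CA12).

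Of 37 tested regulators of HIF 2 rose (5.41%, against 3.69% of all tested genes) and 0 fell (against 4.77%), shares near those of all genes, with a median log2 change of 0.15. At an unadjusted limma p under 0.05, 11 of 37 were higher and 2 of 37 lower. These are a larger and a smaller share than the 13.6% and 14.3% of all tested genes. The 2 called higher were PSMD10, a proteasome assembly factor (43.1 ± 1.91 to 57.0 ± 5.22 FPKM, log2 0.39, adjusted p = 0.0287), and RBX1, the RING subunit of the VHL ubiquitin ligase (31.5 ± 1.55 to 43.1 ± 5.61 FPKM, log2 0.44, 0.0322). The RBX1 call was kept in 2 and the PSMD10 call in 1 of 6 leave-one-out fits. Of 22 genes for VEGF and ephrin ligands, receptors and related factors, 9 were tested. Of the 9, 2 were called higher (22.2%, against 3.69% of all tested genes) and 1 lower (11.1%, against 4.77%). So few genes do not allow a comparison with those shares. Among the 9 the ephrin receptor gene EPHA2, a receptor for EFNA1, rose (34.7 ± 5.56 to 47.0 ± 0.766 FPKM, log2 0.44, adjusted p = 0.0436). The VEGF co-receptor gene NRP1 rose (7.21 ± 0.741 to 10.8 ± 1.93 FPKM, 0.51, 0.0474) and EPHA4 fell (3.25 ± 0.877 to 1.76 ± 0.193 FPKM, -0.60, 0.0435). Each of these 3 calls was kept in 1 of 6 leave-one-out fits.

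**Figure D5:**
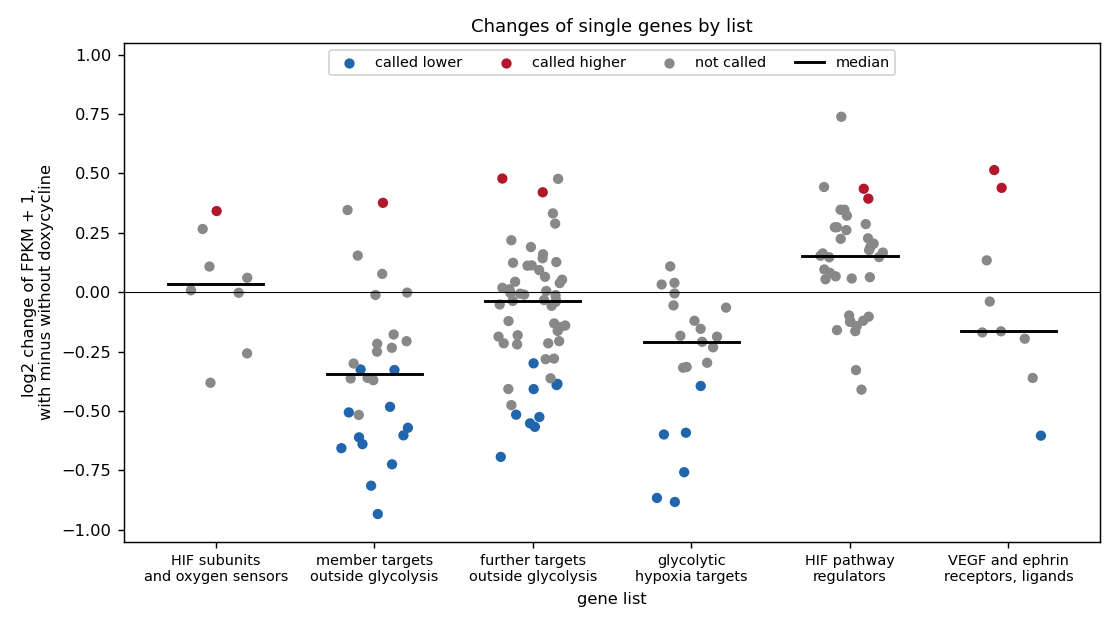
Log2 change of FPKM + 1 of each tested gene (points, coloured by call), by list, with the median of each list as a black bar. The medians are -0.34 for the 28 targets (-0.33 without CA12) and -0.21 for the glycolytic targets, against 0.03 for the subunits and sensors and 0.15 for the regulators.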

How the data were processed

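Gene expression was measured by RNA sequencing in 6 libraries of HCT116 shCAPG cells, 3 per group. The authors deposited 1 value per gene and library, taken as FPKM from how the values behave, since the header names no unit. Bowtie, BWA, STAR, Cufflinks, RSEM and kallisto, without versions or roles, and hg19 are named per the submitters' processing notes. The loci in the table are those of GRCh38: 39321 of 39331 identifiers found in GENCODE 29 had its locus, counting starts from 0, and coordinates are given on GRCh38 from 1. The sources used here do not say whether counting used strand.

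Depth was estimated from the lowest values of 3640 single-exon genes longer than 1000 bases. The 14475 genes that reached 1 FPKM in 3 or more libraries, all 36 members among them, entered the test. It was limma 3.58.1 (R 4.3.3) applied to log2(FPKM + 1) (trended, robust empirical Bayes, group as the only term), two-sided, with Benjamini-Hochberg adjustment over all tested genes. Log2 changes are on that scale and understate changes of low genes. The fit was tested on simulated data. CAPG was compared by an exact permutation test in scipy 1.17.1.

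The members and gene lists were chosen with earlier results of these data known. All members are described. From each further list up to 6 genes with the smallest p-values are named. Alternatives were 2 other pseudocounts (0.1 and 5), 2 other filters, 3 scalings, an ordinary empirical Bayes fit, a length and GC correction, the replicate number as a block, and leaving out each library.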

Additional observations from a re-analysis of the deposited data

How the results depend on the processing

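Without a filter on low values, 4 members were called lower and 0 higher (53 genes higher and 100 lower over all 32367 tested genes). With ordinary empirical Bayes 10 members were called lower and 0 higher, against 605 and 354 of all tested genes. With libraries scaled to equal totals 14 members were called lower and 0 higher, against 6.15% and 3.16% of all tested genes. After quantile normalization 14 members were called lower and 1 higher, against 4.86% and 4.26% of all tested genes. The median of the members was -0.332 with equal totals, -0.32 after quantile normalization and -0.234 with a pseudocount of 5, against -0.279. The length and GC correction called 1411 of all genes higher and 1274 lower, against 534 and 691, and 18 members lower and 3 higher.

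The replicate numbers are shared between groups, but same-numbered libraries did not deviate together (correlations of -0.0433, 0.00936 and -0.0231). With the replicate block 4 members were called lower (ADM, NDRG1, ANKRD37 and HILPDA, but not CA9, 0.0631, or CA12, 0.0651) and 0 higher (HIF1A 0.0919), and 69 of all genes were called higher and 142 lower.

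Leaving out each library in turn gave 4 to 11 members called lower and 0 to 1 higher, and 85 to 403 of all genes higher and 157 to 597 lower. These fits have fewer libraries and test fewer genes.

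Members near 0 changed sign, none of them called. ARNT was at -0.0426 with equal totals and VHL at 0.00869 and AK4 at 0.0321 after the length and GC correction, and CITED2 at 0.0113 after quantile normalization. Over the fits that left out a library the ranges were -0.0802 to 0.101 for ARNT, -0.0295 to 0.0474 for VHL, -0.0389 to 0.068 for CITED2, -0.0535 to 0.0448 for AK4 and -0.0403 to 0.168 for MIF. The causes were not tested. The +Dox levels of CA12 are a few times the FPKM of 3 fragments in 1 kb, and how far depth limits this gene was not tested.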
